A study of Mus musculus with 6 samples.

Results

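Elongating spermatids that carried a short hairpin RNA against Miwi (shMiwi) were compared with elongating spermatids that carried the empty pSilencer vector. The comparison holds 4 of the 6 arrays in the data set, 2 per group, chosen by the vector named in the sample titles. In both groups the testes of ICR mice, an outbred strain labelled as wildtype, were transduced at 5 weeks of age with a lentiviral vector that also encodes GFP. After 1 week the elongating spermatids positive for GFP were collected by sorting. The remaining 2 arrays hold spermatids prepared in the same way with a hairpin against Caf1 (shCaf1), and they serve below to set both hairpins side by side, to check the scale and in some alternative settings. The arrays are labelled as biological replicates, but how many animals or sorts stand behind each is not given in the sources used here. The p-values below therefore measure the spread between these arrays, and with 2 arrays a group the number of arrays limits every value.

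Miwi is the mouse PIWI protein encoded by Piwil1. It binds pachytene piRNAs, the small RNAs made in spermatocytes and round spermatids, and mice without it arrest as round spermatids. In elongating spermatids the nucleus condenses, transcription stops, histones give way to transition proteins and then protamines, and the cell builds an acrosome and a flagellum from mRNAs stored earlier. Most mRNA is then removed, and MIWI has been placed in that removal together with CAF1, which trims poly(A) tails as an enzyme of CCR4-NOT. The question is which transcripts stand higher or lower when Miwi is targeted.

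Both control arrays stood apart from the hairpin arrays. The hybridization controls, labelled RNAs spiked in before hybridization, read 82.3 times the hairpin mean on control 1 and 16.2 times on control 2, against 0.806 to 1.20 times on single hairpin arrays. The brightest 100 probe sets took 52.6% of all signal on control 1, 29.5% on control 2 and at most 7.25% elsewhere. Values are therefore given as percentiles, the place of a probe set among the 45037 ranked on its own array, with 100 the brightest. The rank correlation was 0.412 between the controls and 0.950 between the shMiwi arrays. Control 1 reached 0.238 and 0.253 with the shMiwi arrays, and control 2 reached 0.504 and 0.523. These coefficients run across probe sets, not across independent samples. The controls differed from each other by a median of 19.0 percentile points, and the shMiwi arrays by 2.07 points. The part of these array differences in the results below was not tested.

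No probe set passed limma's test of the percentiles at an adjusted p of 0.05. The smallest adjusted p was 0.0663, and 9585 of the 28669 tested probe sets had an unadjusted p under 0.05. Without control 1 the median difference over the tested probe sets was -0.63 points, and without control 2 it was 2.26 points. Each of these fits has 1 residual degree of freedom, from the pair of shMiwi arrays. Such a fit assumes that the lone control varies like the shMiwi arrays. It holds none of the spread between controls, so its calls are not counted here. What follows on single genes against control is a description. A gene is called higher or lower than both controls where both shMiwi arrays lay at least 10 points to the same side of both control arrays. A gene within 10 points of the top on either control cannot be counted as higher, which limits that count in lists bright on a control. Of 14749 tested genes, 2825 were higher by this rule, which is 19.2%, and 2864 were lower, which is 19.4%. Control 1 alone would have given 6027 higher and 4577 lower genes, and control 2 alone 4390 and 4269. Another 652 genes stood above control 1 and below control 2, and 497 the reverse.

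Gaps grew rarer with size, and more so downward. A gap of at least 50 points held for 309 higher and 75 lower genes, and one of at least 70 points for 66 higher and 8 lower. The 2825 higher genes had median percentiles of 40.4 and 44.9 on the control arrays and 83.7 and 84.2 on the shMiwi arrays. The 2864 lower genes had medians of 86.7 and 79.5 on the controls and 49.7 and 48.7 in shMiwi. A gene entered the test when its mean percentile over the 4 arrays exceeded 40, so a gene that is dim on one side passed only if it was bright on the other.

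**Figure D1:**
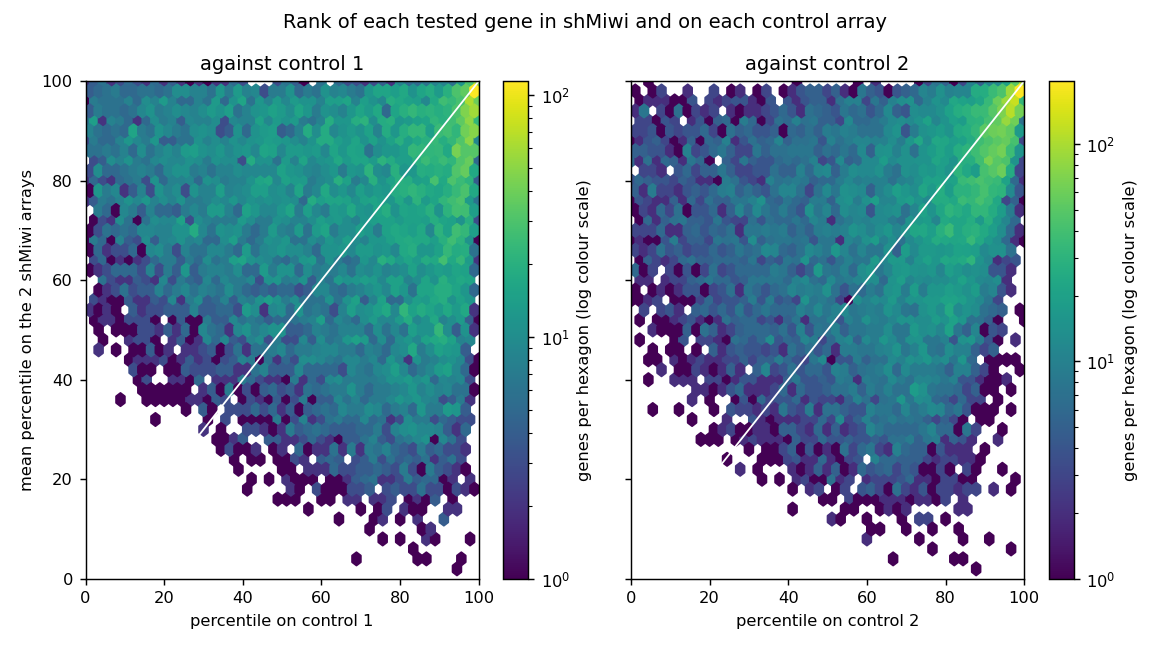
Percentile of the 14749 tested genes on control 1 (left) and control 2 (right) against their mean percentile on the 2 shMiwi arrays, coloured by the number of genes per hexagon on a log scale, with the line of equal rank in white. Genes gather along the line against control 2 and spread over the field against control 1, and the empty lower left corner is set by the filter on the mean percentile.

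The targeted gene was read first. Piwil1 took place 4 and 9 from the top on control 1 and control 2, place 429 and 417 on the shMiwi arrays, and place 49 and 68 on the shCaf1 arrays. Both shMiwi arrays thus lay below the other 4. Since all of these places are near the top, the percentile difference against control was only -0.93 points (SE 0.51, limma adjusted p = 0.294, 2 arrays a group). On the deposited log2 scale it was -6.01 (SE 0.91, limma adjusted p = 0.0300), and on the scale of the hybridization controls -0.62 (SE 2.55, limma adjusted p = 0.823). Against shCaf1, the percentile difference was -0.81 points (SE 0.21, limma adjusted p = 0.0858). The rank of Piwil1 was thus lower on both shMiwi arrays, and a change of an array's scale leaves that rank as it is. The estimates against control were negative on each scale, but their size depended on it. On the scale of the hybridization controls the SE exceeded the difference.

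Cnot7, the gene of the CAF1 deadenylase, is not the gene shMiwi is named for. Its brightest probe set took place 1 and 33 on the controls and 1717 and 1526 on the shMiwi arrays. The other Cnot7 probe sets stood at percentiles 99.99 and 98.3 on the controls against 78.9 and 78.6 in shMiwi, and at 99.997 and 98.2 against 67.9 and 71.8. The lower place on the shMiwi arrays was therefore not limited to Piwil1. Cnot8, the paralog of Cnot7, stood at 35.2 and 58.1 on the controls and at 86.0 and 85.6 in shMiwi, a difference of 39.2 points (SE 11.4, limma adjusted p = 0.110), and its other probe set at 35.6 and 67.5 against 75.0 and 72.3.

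The widest upward gaps belonged to genes near the bottom of both control arrays. Pwwp3b, a PWWP domain gene, stood at percentiles 1.62 and 1.91 on the controls and 95.1 and 96.0 in shMiwi, a difference of 93.8 points (SE 6.84, limma adjusted p = 0.0663). Slc16a1, the monocarboxylate transporter that carries lactate and pyruvate, followed at 2.83 and 3.31 against 93.7 and 94.9. Ccdc39, which sets the repeat length of the axoneme with Ccdc40, stood at 2.23 and 8.43 against 98.0 on both shMiwi arrays. All 3 genes were dim on both controls and bright on both shMiwi arrays. Tasor2 and 4932414N04Rik came next, and Dek, a chromatin protein, stood at 3.08 and 0.36 against 89.1 and 90.7. Adgb, the testis globin androglobin, stood at 6.54 and 4.03 against 92.2 and 93.3. The first 10 were completed by 1700093K21Rik, Hsfy2, a heat shock factor relative of germ cells, and Topbp1, which acts with ATR in the silencing of meiotic sex chromosomes. Topbp1 stood at 9.19 and 14.3 on the controls against 97.5 and 97.6. The limma adjusted p was 0.0663 for each of the 10. The shCaf1 arrays lay close to the shMiwi arrays for all 10. For 4 of these genes the result rests on 1 of 2 probe sets, the other being too dim for the filter. The dim probe set of Slc16a1 went the other way (90.3 and 37.3 on the controls against 7.94 and 16.3). With the median of both probe sets the difference was 19.8 points in place of 91.2 for Slc16a1, 36.1 in place of 91.0 for Tasor2, 43.4 in place of 88.2 for Dek and 44.6 in place of 85.8 for Topbp1.

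The widest downward gaps belonged to genes that were bright on both control arrays. Onecut2, a liver and neuron transcription factor, stood at 94.8 and 87.8 on the controls and 0.76 and 1.45 in shMiwi, a difference of -90.2 points (SE 7.53, limma adjusted p = 0.0663). Ctrb1, the pancreatic chymotrypsinogen, stood at 97.3 and 91.5 against 11.4 and 4.66. Mecom, a zinc finger regulator of blood stem cells, stood at 99.0 and 96.0 against 17.1 and 19.8, and Hoxb5, a homeobox gene, at 82.6 and 96.1 against 3.94 and 8.13. Crygd, a lens crystallin, stood at 96.1 and 82.5 against 1.86 and 8.10. Fign, Ajap1, the enamel gene Amtn, the potassium channel gene Kcnn4 and Fam131c made up the rest of the first 10, each with a limma adjusted p of 0.0663. Probe sets of these genes differed: 2 of the 3 tested Mecom probe sets and 1 of the 2 of Kcnn4 were lower than both controls, against all 3 of Fign and both of Ajap1. With the median of all probe sets, dim ones included, the difference was -25.2 points in place of -90.2 for Onecut2, -44.5 in place of -79.1 for Mecom and -44.7 in place of -78.6 for Ajap1. With the probe set brightest in shCaf1 it was -3.75 for Ajap1 and -25.5 in place of -74.9 for Kcnn4.

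**Figure D2:**
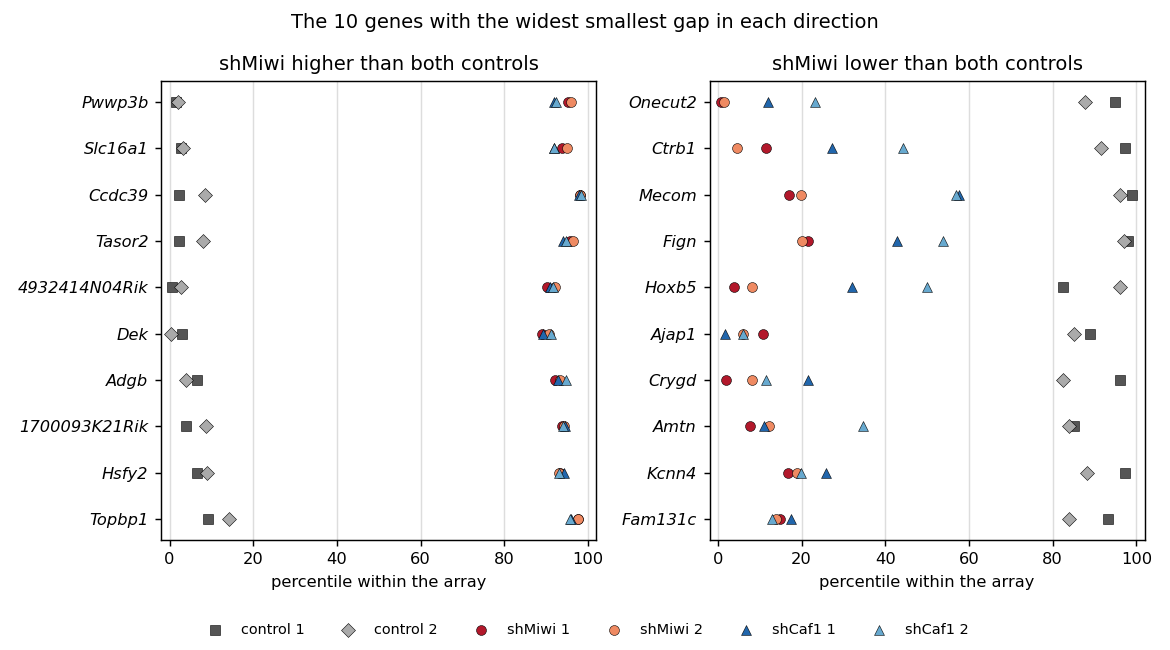
Percentile within each of the 6 arrays for the 10 genes with the widest gap upward (left) and downward (right), where the gap is the smallest of the 4 differences between a shMiwi and a control array. Points are single arrays. The shCaf1 arrays sit beside shMiwi for the genes on the left, and between shMiwi and control for several genes on the right, such as Mecom.

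Genes of the piRNA pathway mostly stood higher than both controls. Of 25 tested members (26 measured), 15 were higher and 0 lower, where 19.2% and 19.4% of all tested genes were. The list's median percentile was 62.8 and 64.1 on the controls and 95.2 and 94.8 in shMiwi. Tdrd1, a Tudor scaffold of the germ granule, stood at 23.4 and 5.88 on the controls and 78.2 on both shMiwi arrays (difference 63.6, SE 9.47, limma adjusted p = 0.0663). Pnldc1, the trimmer of piRNA 3' ends, stood at 26.1 and 36.4 against 81.3 and 80.9, and Mybl1, the transcription factor of pachytene piRNA clusters, at 30.2 and 49.6 against 89.7 and 92.4. Only 1 of the 2 Mybl1 probe sets met the rule. Stk31, a Tudor and kinase domain protein, stood at 61.8 and 26.8 against 95.7 and 96.7, on both of its probe sets. Piwil2, which encodes the PIWI protein MILI, stood at 59.6 and 87.0 against 98.4 and 98.3. Against control 1 alone the distance was wider for some members: Ddx4 and Mael, chosen after their values were seen, stood at 0.30 and 3.35 on control 1 but at 74.3 and 89.9 on control 2. Tex19.1, also chosen after its values were seen, stood between the controls (62.2 and 87.4 against 81.1 and 82.0).

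Late spermatid genes gave a different result against each control. Of 27 tested members of the protamine and late spermatid list, 22 were higher than control 1, where 40.9% of all tested genes were, but 2 were higher than control 2, where 29.8% were. The median was 51.1 on control 1, 98.1 on control 2, and 98.3 and 97.8 in shMiwi. With 98.1 on control 2, the scale leaves most members no room to be counted as higher than it, so the count of 2 is limited by the scale. The median difference was 48.3 points against control 1 and -0.05 against control 2. Prm2, a protamine that packs sperm DNA, stood at 29.1 on control 1, 99.95 on control 2 and 99.9 on both shMiwi arrays. Prm1, the other protamine, stood at 96.1 and 99.9 on the controls and 99.9 on both shMiwi arrays. Tnp1 and Tnp2, the transition proteins, chosen after their values were seen, stood at 9.45 and 1.55 on control 1 but at 99.8 and 99.7 on control 2, beside 99.6 or more in shMiwi. The mRNAs that mark the sorted stage were therefore high on control 2 and on both shMiwi arrays, while 22 of 27 ranked lower on control 1. The members higher than both controls were Cabs1, a calcium-binding flagellar protein (78.9 and 63.1 against 99.1 and 99.5), and Fam71b (15.8 and 73.3 against 92.1 and 91.9). Car4, carbonic anhydrase 4, was the only member lower than both (86.4 and 77.7 against 51.7 and 40.004), on 1 of its 2 probe sets.

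Acrosome and round spermatid genes lay between these cases. Of 22 tested acrosome and egg-binding genes, 10 (45.5%) were higher than both controls and 1 (4.55%), Adam1a, was lower. Over all tested genes these shares were 19.2% and 19.4%. Hyal5, a sperm hyaluronidase, stood at 8.41 and 21.6 on the controls against 92.8 and 93.8 (difference 78.3, SE 8.22, limma adjusted p = 0.0663). Zp3r, an acrosomal matrix protein, stood at 51.2 and 51.4 against 97.2 and 97.4, and Crisp2, a cysteine-rich secretory protein of the acrosome, at 64.1 and 41.4 against 99.5 and 99.6. Izumo1, the sperm protein that binds Juno on the egg, stood at 10.9 and 67.1 against 95.6 and 95.7. Acr, the protease acrosin, went the other way without meeting the rule (92.5 and 93.3 against 85.8 and 81.7). Of 28 round spermatid genes 8 (28.6%) were higher and 1 (3.57%) lower. Dpy19l2, needed to anchor the acrosome, stood at 12.6 and 36.7 against 92.9 and 94.7, and Hook1, a manchette protein, at 52.6 and 49.8 against 93.8 and 94.2 on the brighter of 2 probe sets that both met the rule. Crem, the transcriptional switch of round spermatids, stood at 66.7 and 49.8 against 74.4 and 74.7 and did not meet the rule on this probe set, though 2 of its 3 tested probe sets did. The lower gene was Rfx2, but another of its probe sets was higher than both controls, so no direction can be given.

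**Figure D3:**
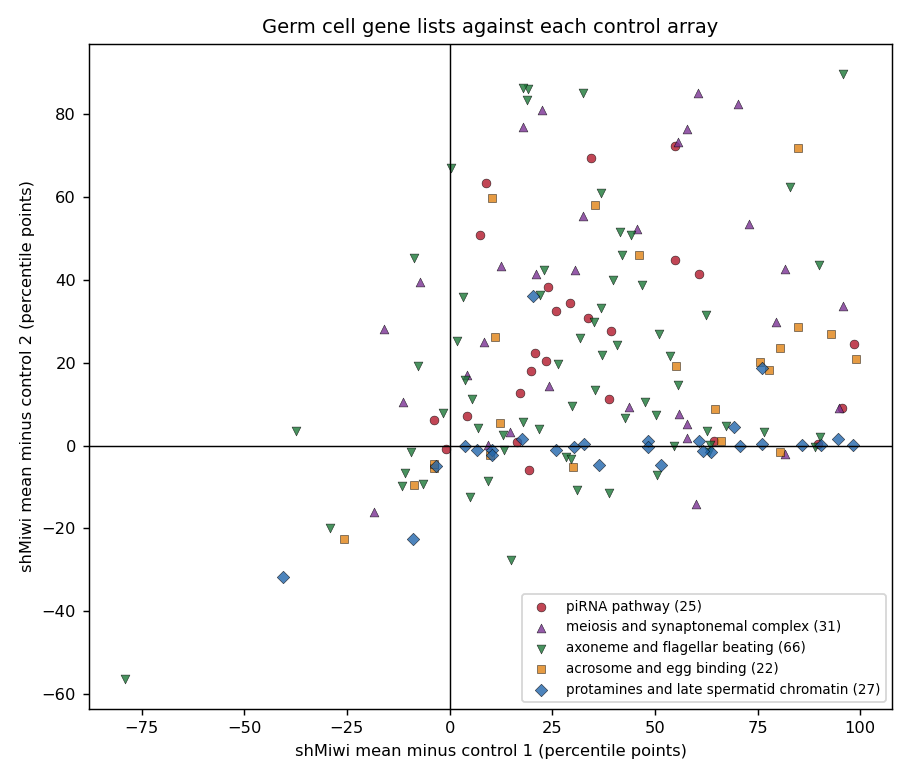
Each point is a tested gene of 5 germ cell lists, placed by its shMiwi mean minus control 1 (horizontal) and minus control 2 (vertical) in percentile points, with the number of genes per list in the key. Most late spermatid genes lie along the horizontal zero line, while piRNA, meiosis and axoneme genes spread into the upper right quadrant.

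Meiotic genes, which act before the sorted stage, stood higher than both controls in 16 of 31 cases (51.6%) and lower in 1 (3.23%). Over all tested genes these shares were 19.2% and 19.4%. The median of the meiotic list was 39.1 and 56.3 on the controls and 88.8 and 90.6 in shMiwi. Dazl, an RNA-binding protein that promotes translation in germ cells, stood at 24.5 and 12.4 against 94.5 and 95.1 (difference 76.4, SE 8.16, limma adjusted p = 0.0663), on both of its probe sets. Meiob, a recombination factor that binds single-stranded DNA, stood at 28.7 and 4.18 against 87.7 and 90.6. Smc1b, a meiotic cohesin, stood at 37.7 and 19.2 against 96.2 and 94.9. Brdt, the testis bromodomain protein, stood at 32.2 and 14.7 against 87.8 and 88.0, and all 3 of its probe sets met the rule. Sycp1 and Sycp2, structural proteins of the synaptonemal complex, stood at 85.8 and 55.0 against 98.5 and 98.2, and at 17.7 and 56.7 against 99.3 and 99.5. The lower gene was Msh5, a crossover factor (92.7 and 90.4 against 76.2 and 72.5), on 1 of its 2 probe sets. Among 18 spermatogonial genes 5 (27.8%) were higher and 2 (11.1%) lower. Dmrt1, which holds off meiosis, stood at 22.9 and 14.7 against 87.3 and 88.4. Zbtb16, the factor that maintains spermatogonial stem cells, was lower (94.6 and 85.8 against 52.8 and 17.6), with shMiwi arrays far apart and another probe set pointing the other way.

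The axoneme list held the largest number of higher genes. Of 66 tested members (69 measured), 26 (39.4%) were higher than both controls and 2 (3.03%) lower. Over all tested genes these shares were 19.2% and 19.4%. The list's median was 55.8 and 68.8 on the controls and 90.2 and 90.5 in shMiwi. Against control 1 alone 48 members were higher, and against control 2 alone 33, where 40.9% and 29.8% of all tested genes were. Ccdc39, described above, met the rule on both of its tested probe sets. Drc1, a subunit of the nexin-dynein regulatory complex that keeps flagellar beating in register, stood at 9.37 and 29.9 against 92.9 and 91.8 (difference 72.7, SE 10.1, limma adjusted p = 0.0663). Lrrc6, a dynein assembly factor, stood at 44.6 and 38.0 against 86.6 and 91.0, on 1 of 2 probe sets. Spag6, a central pair protein, stood at 2.87 and 49.5 against 91.4 and 94.5. Dnah1 and Dnah2, inner arm dynein heavy chains, stood at 22.7 and 52.1 on control 1 and at 85.5 and 88.3 on control 2. They stood at 90.2 and 96.5 on shMiwi 1 and at 89.998 and 93.3 on shMiwi 2, and did not meet the rule on these probe sets. Of their 2 tested probe sets each, 1 of Dnah1 was higher than both controls and 1 of Dnah2 lower. The lower members were the outer arm heavy chain genes Dnah17 (92.5 and 69.7 against 20.5 and 6.50) and Dnah5 (80.8 and 71.6 against 50.3 and 53.2).

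The promoters of the axoneme genes are shown because a short letter pattern is common among them. The window is 300 bases around the annotated start, from RefSeq on GRCm38.p6, and the pattern is GTTGCC on either strand, the core of the X-box that RFX factors bind. The search was made after the values were known. It matched 13.3% of the windows of all tested genes (2002 of 15092) and 12.5% of all 32851 windows. It matched 32.8% of the windows of the tested axoneme genes (20 of 61), and 47.4% of the windows of those higher than both controls (9 of 19, from the 19 of 26 genes with a window). Acrosome genes held it in 34.6% of windows (9 of 26), but those of them higher than both controls in 1 of 10. The windows of 3 named axoneme genes follow, 5′ to 3′ on the strand of the gene, with the pattern or its reverse complement in capitals. Drc1 lies at chr5:30281143-30281442 on the plus strand, Spag6 at chr2:18698772-18699071 on the plus strand and Ccdc39 at chr3:33844261-33844560 on the minus strand.
Drc1: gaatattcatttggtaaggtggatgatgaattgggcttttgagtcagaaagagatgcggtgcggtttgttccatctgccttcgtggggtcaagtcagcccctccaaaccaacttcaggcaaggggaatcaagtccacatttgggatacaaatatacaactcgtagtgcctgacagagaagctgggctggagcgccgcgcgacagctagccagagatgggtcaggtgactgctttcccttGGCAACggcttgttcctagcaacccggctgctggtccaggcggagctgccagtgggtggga
Spag6: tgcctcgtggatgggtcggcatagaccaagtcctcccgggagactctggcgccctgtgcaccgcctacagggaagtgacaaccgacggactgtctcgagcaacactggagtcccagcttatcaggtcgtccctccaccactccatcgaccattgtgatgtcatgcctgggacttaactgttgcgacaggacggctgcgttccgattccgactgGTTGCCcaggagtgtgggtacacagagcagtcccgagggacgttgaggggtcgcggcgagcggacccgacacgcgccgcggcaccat
Ccdc39: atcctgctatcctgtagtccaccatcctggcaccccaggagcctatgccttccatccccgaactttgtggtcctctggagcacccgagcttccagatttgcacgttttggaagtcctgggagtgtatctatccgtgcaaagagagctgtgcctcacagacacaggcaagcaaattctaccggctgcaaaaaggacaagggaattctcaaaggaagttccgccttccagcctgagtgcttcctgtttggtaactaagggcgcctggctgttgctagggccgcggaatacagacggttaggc
The match begins at position -11 from the annotated start in Drc1, on the opposite strand, and at -37 in Spag6, on the strand of the gene. The Ccdc39 window holds no match to these letters, although Ccdc39 had the widest gap of the list. A match describes the letters and is neither a site nor a cause.

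Intraflagellar transport is the train system that builds the flagellum. Its genes and kinesins were higher in 13 of 29 cases (44.8%) and lower in 1 (3.45%). Over all tested genes these shares were 19.2% and 19.4%. Kif27, a kinesin of motile cilia, stood at 30.8 and 32.9 against 89.3 and 88.0 (difference 56.8, SE 7.37, limma adjusted p = 0.0663). Ift74, a core subunit of the IFT-B train, stood at 48.3 and 32.3 against 97.0 and 97.3, and Cluap1, another IFT-B subunit, at 44.2 and 28.005 against 92.2 and 92.7. Kif18a, a kinesin of the mitotic and meiotic spindle, stood at 16.5 and 37.0 against 81.7 and 86.5. Ift22 stood at 96.5 on both controls and 90.1 and 90.2 in shMiwi, within the 10 points that the rule asks. The lower gene was Kif3c, a kinesin-2 motor (94.8 and 92.5 against 45.5 and 52.2), on 1 of 2 probe sets.

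The mRNA decay machinery did not stand to one side. Of 22 tested deadenylase and CCR4-NOT genes 5 were higher and 4 lower, against 19.2% and 19.4% of all tested genes. The higher ones included Pan2, the catalytic subunit of the PAN2-PAN3 deadenylase (27.6 and 47.8 against 87.5 and 88.9), and Noct, a deadenylase relative (56.3 and 33.3 against 85.0 and 86.5). Pan3, its partner subunit, was higher on this probe set (36.1 and 67.4 against 93.1 and 93.0) and on another, and lower on a further one. The scaffold subunit Cnot3 was lower (95.0 and 97.5 against 71.5 and 65.9) on both of its probe sets, and Cnot2 was lower on 3 of 4 (brightest at 99.7 on both controls against 88.8 on both shMiwi arrays). Tob2, an adaptor of the complex, was lower on 3 of 4 probe sets and higher on 1, and Cnot6, a catalytic subunit, was lower on the probe set that stands for it and higher on the other 3. Neither has a settled direction.

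Of 18 decapping genes 3 (16.7%) were higher and 2 (11.1%) lower, where 19.2% and 19.4% of all tested genes were. Pnrc1, a decapping cofactor, stood at 10.5 and 29.5 against 87.3 and 89.9, and Dcp2, the decapping enzyme, at 65.4 and 62.4 against 86.4 and 85.3 on 1 of 2 probe sets. Patl2, an oocyte and germ cell relative of the decapping activator Patl1, was lower (93.7 and 80.7 against 48.4 and 50.04). Of 15 exosome genes, whose products degrade RNA from the 3' end, 5 (33.3%) were higher and 1 (6.67%) lower. Exosc9, a core subunit, stood at 30.5 and 8.73 against 79.1 and 80.9, and Dis3l, a cytoplasmic nuclease subunit, at 43.8 and 32.4 against 91.6 and 92.0. None of 9 nonsense-mediated decay genes was higher or lower on the probe set that stands for it, though Upf2 was lower on 1 of 2. Of 13 Argonaute and microRNA genes 0 were higher and 2 (15.4%) lower by the probe set that stands for each. Ago2 was nevertheless higher on 2 of its 4 probe sets. The lower genes were Tnrc6b (97.8 and 96.8 against 80.9 and 78.5) and Tnrc6c, which encode GW182 scaffolds of silencing. Each was lower on 1 of 3 probe sets, and the median of the Tnrc6c probe sets pointed the other way.

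Of 42 cytosolic ribosomal protein genes 0 were higher and 2 lower, and the median was 99.0 and 99.2 on the controls and 98.4 and 98.6 in shMiwi. A gene this close to the top of the control arrays cannot lie 10 points higher, so for most of these genes the scale leaves no room to be counted as higher. The lower ones were Rpl27a (99.8 and 98.8 against 68.9 and 70.8, on 1 of 2 probe sets) and Rpl37 (99.8 and 99.7 against 84.2 and 87.7). Of 40 genes of initiation and poly(A) binding 5 (12.5%) were higher and 3 (7.5%) lower, where 19.2% and 19.4% of all tested genes were. Paip2 and Paip2b, which hold back poly(A)-binding protein, stood at 47.2 and 71.2 against 93.2 and 93.6, and at 25.8 and 34.7 against 92.2 and 92.5. Of 30 germ cell RNA-binding proteins 6 (20%) were higher, near the share of all tested genes, and 3 (10%) lower. Cpeb1, which controls cytoplasmic polyadenylation, stood at 13.2 and 9.91 against 71.2 and 75.7, and Adad1, a testis double-stranded RNA-binding protein, at 48.6 and 72.4 against 98.9 and 98.8. Fmr1 was lower (99.5 on both controls against 85.2 and 86.9), on 2 of 3 probe sets.

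Genes of protein folding and turnover were counted against the 19.2% of all tested genes that were higher and the 19.4% that were lower. Of 48 chaperone genes 12 were higher, which is 25%, and 0 lower. Of 44 ubiquitin genes 11 were higher, also 25%, and 2 lower, which is 4.55%. Of 39 proteasome genes 3 were higher, which is 7.69%, and 1 lower, which is 2.56%. The proteasome list's medians were 96.8 and 94.7 on the controls, so the scale leaves many members no room to be counted as higher. Pdcl2, a phosducin-like germ cell protein, stood at 41.0 and 4.61 against 99.8 and 99.9, and Hsph1, an Hsp110 family exchange factor, at 10.7 and 46.4 against 89.4 and 91.5 on the brighter of 2 probe sets that both met the rule. Hspa4, another Hsp110 protein, met it on all 3 tested probe sets. Ube2u, a ubiquitin-conjugating enzyme, stood at 18.9 and 3.52 against 93.3 and 93.8 (difference 82.3, SE 8.68, limma adjusted p = 0.0663), and Rnf8, a ubiquitin ligase of the DNA damage response, at 38.4 and 29.6 against 85.1 and 83.0. Psma8, the spermatocyte proteasome subunit, stood at 52.7 and 77.3 against 98.2 on both. Psmb9, an immunoproteasome subunit, was lower (90.5 and 86.3 against 62.5 and 67.1).

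Among the energy genes, the glycolysis list differed mainly from control 1. Of 23 glycolysis genes 16 were higher than control 1, where 40.9% of all tested genes were, and 4 higher than control 2, where 29.8% were. The list's median was 49.0 on control 1, 93.8 on control 2 and 93.9 and 94.4 in shMiwi. With 93.8 on control 2, the scale leaves many members no room to be counted as higher than it. The median difference was 38.7 points against control 1 and 0.15 against control 2. The glycolysis genes higher than both controls were Slc16a1, described above, Slc16a7, Aldoart1 and Eno4. Aldoart1, a sperm aldolase, stood at 1.31 and 14.8 against 86.3 and 88.2, and Eno4, the sperm enolase, at 73.5 and 78.5 against 93.7 and 93.8 on all 3 probe sets. Of 66 oxidative phosphorylation genes 4 (6.06%) were higher than both controls and 2 (3.03%) lower, against 19.2% and 19.4% of all tested genes. The list's medians were 90.8 and 97.4 on the controls, so the scale leaves many members no room to be counted as higher. Cyct, the testis cytochrome c, stood at 5.57 and 87.1 against 98.9 and 99.7. Of 12 histone genes 0 were higher and 1 (8.33%) lower, the spermatocyte linker histone H1f6 (87.3 and 75.2 against 59.4 and 54.4).

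Markers of other cells were read to see what the sorted fractions could hold. In bulk RNA, fewer cells of a type and less RNA per cell cannot be told apart. Among 16 genes of peritubular myoid cells and fibroblasts 7 (43.8%) were higher than both controls and 1 (6.25%) lower. Over all tested genes these shares were 19.2% and 19.4%. The list's medians were 46.2 and 52.7 on the controls and 81.5 and 80.4 in shMiwi. Col3a1, a fibrillar collagen, stood at 21.2 and 51.6 against 96.7 and 95.9, and Myh11, smooth muscle myosin, at 28.4 and 14.8 against 76.5 and 78.1. Des, a muscle intermediate filament, was lower on both probe sets. Among 12 macrophage and leukocyte genes 5 (41.7%) were higher and 2 (16.7%) lower. C1qa, a complement subunit, stood at 19.8 and 30.3 against 79.6 and 76.1. The lower ones were Itgam, the CD11b integrin of myeloid cells (59.9 and 53.9 against 18.2 and 34.2), and Cd3e, a chain of the T cell receptor complex (61.1 and 54.5 against 33.2 and 13.6). Sertoli genes gave 2 (11.1%) higher and 3 (16.7%) lower of 18, and Leydig genes 3 (25%) higher and 0 lower of 12. The part of these cells in the results on germ cell genes was not tested.

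Genes of other organs and of vessels were counted as lower and not as higher. Of 21 tested genes of other organs (33 measured) 0 were higher and 10 (47.6%) lower, against 19.2% and 19.4% of all tested genes. The median over the measured genes was 56.4 and 63.8 on the controls and 33.7 and 40.8 in shMiwi. A gene dim in shMiwi entered the test only if it was brighter on the controls, so the filter favours lower counts here. The same limit applies to the endothelial genes (13 measured) and the interferon genes (25 measured) below. Nefl, a neurofilament protein, stood at 94.8 and 87.6 against 27.4 and 9.55 (difference -72.8, SE 9.67, limma adjusted p = 0.0663), and Opn1sw, a cone opsin, at 91.4 and 70.4 against 17.7 and 30.5. Of 10 tested endothelial genes 0 were higher and 5 (50%) lower, with Egfl7, a secreted vessel factor, at 93.9 and 93.8 against 58.6 and 62.0. Of 18 interferon and RNA-sensing genes 2 (11.1%) were higher and 5 (27.8%) lower. Oas1a and Oas1b, sensors of double-stranded RNA, stood at 96.1 and 89.5 against 45.7 and 50.02, and at 92.5 and 85.3 against 38.5 and 44.5, while Ifih1, another such sensor, was higher (44.5 and 12.4 against 62.6 and 65.0). Of 19 immediate early and stress genes 3 (15.8%) were higher and 2 (10.5%) lower, and of 13 housekeeping genes 2 (15.4%) and 1 (7.69%).

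**Figure D4:**
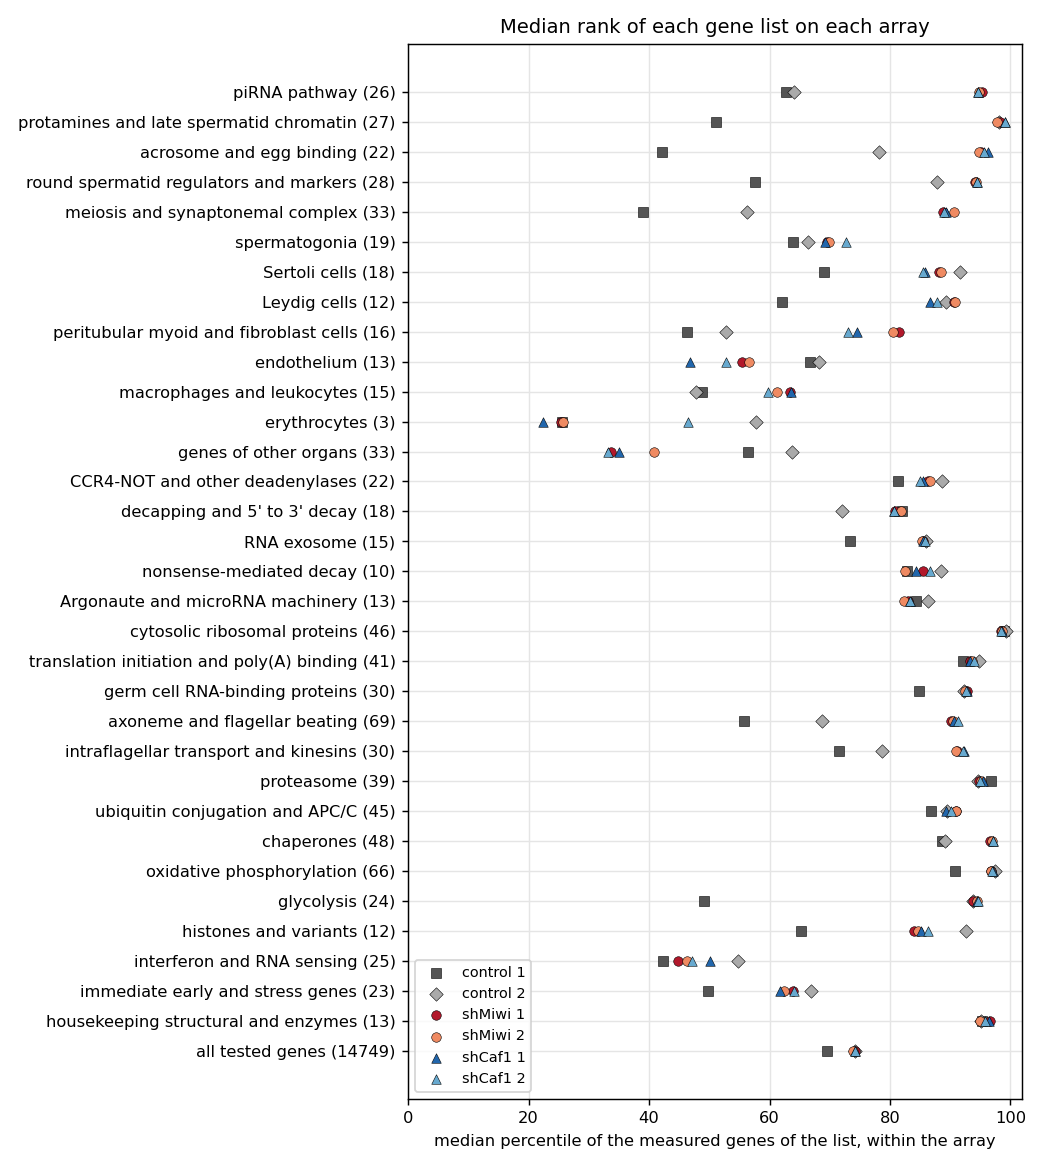
Median percentile of the measured genes of each of 32 lists on each of the 6 arrays, with the number of genes in brackets and all tested genes in the bottom row. Lists of piRNA, meiosis, axoneme and intraflagellar genes have both controls to the left of shMiwi, late spermatid and glycolysis genes have control 1 alone to the left, and genes of other organs have both controls to the right.

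Probe sets of a gene did not always point the same way. Of 6108 genes with at least 2 tested probe sets, 384 (6.29%) were higher than both controls on all of them, 202 (3.31%) lower on all, and 619 (10.1%) higher on one and lower on another. The genes with the widest agreement upward, taken from this count after values were seen, were Idi1, an isomerase of sterol synthesis, and Dazl, whose probe set medians were 4.52 and 4.96 against 83.4 and 85.4, and 15.2 and 8.59 against 96.1 and 96.7.

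The difference between shMiwi and shCaf1 was tested without the controls. limma on the percentiles of these 4 arrays called 1087 of 28669 probe sets (3.79%), 515 higher and 572 lower in shMiwi, and 723 of the tested genes (4.9%). Of the 2825 genes higher than both controls in shMiwi, 170 also passed as higher than shCaf1 and 70 as lower, and the median difference was 0.74 points. Of the 2864 genes lower than both controls, 1 passed as higher and 27 as lower than shCaf1, with a median difference of -1.45 points. The genes that stood higher than control had median percentiles of 82.7 and 82.8 on the shCaf1 arrays, beside 83.7 and 84.2 in shMiwi. Both hairpins are set against the same 2 control arrays. Among the named genes, the kallikreins Klk1b24 and Klk1b21, made in Leydig cells, stood at 90.8 and 85.4 on average in shMiwi against 57.6 and 57.9 in shCaf1 (limma adjusted p = 0.00296 and 0.0231). Mecom passed in the other direction, at 18.4 against 57.2 (limma adjusted p = 0.0237).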

How the data were processed

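Total RNA of sorted spermatids was extracted with Trizol, labelled with the GeneChip 3' IVT Express kit and hybridised to mouse arrays, per the labels' protocols. The authors deposited linear signal intensities, 1 for each probe set on each array, made with MAS5 per the submitters' processing notes. The deposited intensities have a 2% trimmed mean of 500 on every array. Versions and a genome build are not given in the sources used here.

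The 64 control probe sets were left out and the other 45037 were ranked on each array as percentiles, since the control arrays differ in scale and quality. Probe sets with a mean percentile above 40 over the 4 arrays were tested, 28669 in number. They were compared with limma 3.58.1 (R 4.3.3; lmFit, eBayes with trend; 2 residual degrees of freedom), and p-values were adjusted by Benjamini-Hochberg. An exact permutation test of 2 against 2 arrays cannot go below 0.333. A call needed an adjusted p under 0.05 and a gap of 10 points, and as no probe set passed, genes are described by the gap alone. This also replaces calls in the rule for list members.

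Genes were named from the platform table where a probe set has 1 symbol (34945, with 932 naming several and 9160 none), and 34741 were matched to RefSeq on GRCm38.p6 with 0 symbols changed. The probe set with the highest mean percentile over the 4 arrays stood for a gene, which lets a probe set bright on the controls alone stand for it. The 32 lists hold 959 genes, of which 839 were measured and 792 tested. List medians are over measured genes and counts over tested ones. The named genes are Piwil1, Cnot7, Cnot8, the 10 widest gaps in each direction, and from each list the first 2 measured members and up to 4 per direction, 213 in all, of which the text gives a part. Members and lists were chosen with earlier results of these data known. Alternatives were other scales (log2 after adding 16), filters, gaps, models and probe sets, and leaving out each array.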

Additional observations from a re-analysis of the deposited data

Results flagged for a closer look

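Among the 163 tested named genes that stood higher or lower than both controls, 15 also differed between the shMiwi and shCaf1 arrays. The test was limma on percentiles, adjusted over all tested probe sets. It called 723 of all 14749 tested genes (4.9%). Of all 2825 genes higher than both controls it called 8.5%, and of all 2864 lower genes 0.98%. Values are shMiwi minus shCaf1 in percentile points, with the mean percentile of each pair of arrays. In each, both shMiwi arrays lay on the same side of both shCaf1 arrays.

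The largest upward differences were in markers of cells outside the germ line. Klk1b24, a Leydig cell kallikrein, was higher in shMiwi by 33.2 points, at 90.8 against 57.6 (limma adjusted p = 0.00296). Klk1b21, a related kallikrein, was higher in shMiwi by 27.4 points, at 85.4 against 57.9 (limma adjusted p = 0.0231). Col3a1, a collagen of fibroblasts, was higher in shMiwi by 9.74 points, at 96.3 against 86.6 (limma adjusted p = 0.0036). Wt1, a Sertoli cell transcription factor, was higher in shMiwi by 5.54 points, at 85.9 against 80.4 (limma adjusted p = 0.0292).

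The germ cell genes flagged here differed by fewer points. Their means ran from 86.3 to 97.3, near the top of the percentile scale, which leaves less room for a difference than lower down. Mybl1, the piRNA cluster factor, was higher in shMiwi by 4.71 points, at 91.0 against 86.3 (limma adjusted p = 0.0491). Id4, a spermatogonial factor, was higher in shMiwi by 3.09 points, at 94.0 against 90.9 (limma adjusted p = 0.0231). Izumo1, the egg-binding protein, was lower in shMiwi, with a difference of -1.65 points, at 95.7 against 97.3 (limma adjusted p = 0.0374). Kif27, a ciliary kinesin, was lower in shMiwi, with a difference of -4.04 points, at 88.7 against 92.7 (limma adjusted p = 0.0256). Ube2u, a ubiquitin-conjugating enzyme, was lower in shMiwi, with a difference of -2.80 points, at 93.6 against 96.4 (limma adjusted p = 0.0209). Aldoart1, a sperm aldolase, was lower in shMiwi, with a difference of -4.87 points, at 87.2 against 92.1 (limma adjusted p = 0.0322). Eno4, the sperm enolase, was higher in shMiwi by 2.44 points, at 93.8 against 91.3 (limma adjusted p = 0.0346).

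The remaining genes were among the widest gaps against control, apart from the ribosomal protein gene Rpl27a. Pwwp3b was higher in shMiwi by 3.56 points, at 95.6 against 92.0 (limma adjusted p = 0.0209). Topbp1 was higher in shMiwi by 1.70 points, at 97.5 against 95.8 (limma adjusted p = 0.0334). Mecom was lower in shMiwi, with a difference of -38.8 points, at 18.4 against 57.2 (limma adjusted p = 0.0237). Rpl27a was lower in shMiwi, with a difference of -13.7 points, at 69.9 against 83.5 (limma adjusted p = 0.0134).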

How the results depend on the processing

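Limma's calls against control depended on the scale. There were 0 with percentiles, quantile normalization, the logit, no filter, a filter at 60, array weights, a gap of 20 points or the adjusted p alone. The deposited log2 values gave 2463 higher and 5518 lower, median centring 5437 and 1288, and the hybridization control scale 24578 and 26, with median differences over all probe sets of -0.52, 1.06 and 3.36. All 6 arrays in 1 fit gave 3916 and 3745, and eBayes without trend 625 and 143. Leaving out single arrays gave from 0 to 11562 higher and from 0 to 8892 lower, with 0 without either shMiwi array. These fits have 1 residual degree of freedom, and those without a control hold no spread between controls. By the gap alone, 6163 of the 28669 probe sets were higher and 5948 lower in the main setting. Leaving out single arrays gave 6398 to 11878 higher and 6503 to 9543 lower probe sets. Without a filter 9026 of 45037 probe sets were lower. A filter at 60 left 2566 higher and 2752 lower of 15296, and a gap of 20 points left 4058 and 3534 of 28669. Piwil1 passed at -6.01 (deposited log2, limma adjusted p = 0.0300) and -4.43 (median-centred, 0.0311), and not at quantile-normalized -3.31 (0.0524). Of 32 lists, 27 had a median difference above 0, 18 without control 1 and 27 without control 2. Over all tested genes the median difference was itself 3.04 points, with -1.10 against control 2 alone and 2.40 against control 1 alone. A list median above 0 is therefore not particular to a list.

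Whether the replicate numbers pair the arrays cannot be told from these data. Correlations of deviations across probe sets were -0.01 between control and shMiwi and 0.08 between shCaf1 and shMiwi. Each rests on 2 arrays a group, which is too few to show or exclude pairing. A replicate block took the calls between shMiwi and shCaf1 from 1087 to 3334 probe sets. With a replicate block, 0 calls were made against control. Of the 207 tested named genes, those passing against shCaf1 went from 10 higher and 6 lower to 22 and 17 with the block. On deposited log2 values 15 were lower. The cause of these shifts was not tested.

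The direction of 9 named lower genes turned with another probe set. With the probe set brightest in shCaf1 the differences were 37.8 points for Rfx2, 8.20 for Zbtb16, 1.25 for Prss2, 40.9 for Cnot6, 20.4 for Eif2b2, 28.2 for Pabpc4 and 42.3 for Polr2a. With the median of all probe sets they were 8.20 for Zbtb16, 0.28 for Gata4, 37.9 for Cnot6, 5.79 for Tnrc6c, 4.85 for Pabpc4 and 3.37 for Polr2a. Of 164 named genes, the difference was over 1.5 times smaller for 39 with that median and for 7 with the probe set brightest in shCaf1. Beside those given with the widest gaps, the 39 include Car4, Dcp2, Egfl7, Kif18a, Kif3c, Myh11, Nefl, Paip2b, Pnrc1, Rfx2, Rpl27a and Tnrc6b. The number of arrays, 2 a group, limits the precision of each value.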
